A study of Saccharomyces cerevisiae with 91 samples.

Results

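The longest protein-coding transcripts of budding yeast were examined for how nucleosomes sit at their promoters in vivo. They were taken from a table of transcript ends and nucleosome positions as the rows of class ORF whose transcription start site (TSS) and transcription termination site (TTS) lie 4000 bp or more apart. This rule picked 227 of the 4536 ORF transcripts in the table (5.00%), which itself holds 4963 transcripts of all classes. The rule used transcript length alone, and no nucleosome position entered it. The comparison set was the 2090 ORF transcripts of 1000 to 2000 bp, called 1 to 2 kb ORFs below.

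The study asked which DNA-borne information the INO80 chromatin remodeler reads when it places the +1 nucleosome, and mostly used genomes reconstituted in vitro (91 samples in the whole series). The positions used here come from its in vivo reference, 1 MNase-seq library of mononucleosomal DNA from nuclei of the Saccharomyces cerevisiae strain BY4741, a standard laboratory strain with no other allele or treatment named, grown to log phase in rich medium (YPD). There is no mutant, no treatment and no replicate in it, and the table gives positions in bp without read depth. Every interval below is therefore a 95% interval over transcripts of 1 library, exact from order statistics for a median and Wilson for a share, and covers neither replicate nor growth variation. Neighbouring genes can share a promoter, so transcripts are not independent replicates and no p-value is given.

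A typical yeast promoter carries a nucleosome-depleted region (NDR) between 2 well-placed nucleosomes, the -1 nucleosome upstream and the +1 nucleosome downstream. The +1 nucleosome usually covers or borders the TSS and starts the regular array over the gene body. General regulatory factors such as Reb1 and Cbf1, and stiff poly(dA/dT) tracts, help to keep NDRs open, and remodelers including INO80 set the flanking nucleosomes. Very long yeast genes mostly encode large scaffolds and multidomain enzymes, among them motor proteins, kinases of the TOR and ATM type, membrane transporters, remodelers, polymerases and lipid transfer proteins.

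The promoter DNA of a few long genes is shown first because the later comparisons turn on 2 kinds of element in it, the Reb1 core motif TTACCC and homopolymer tracts. Each line gives the DNA between the inner flanks of the -1 and +1 nucleosome cores (73 bp inside each dyad, the dyad being the centre of the nucleosome) that lies in no transcript of the table. Sequences are from the RefSeq R64 genome, the build of the table (SacCer3), and run 5′ to 3′ on the coding strand. In the 3 longest transcripts with TTACCC in the NDR, VPS13 (chrXII:63790-63900, minus strand), IRA1 (chrII:526954-527096, minus strand) and TOR2 (chrXI:63581-63692, minus strand), capitals mark TTACCC or its reverse complement. In MDN1 (chrXII:363907-364037, minus strand), the longest transcript with neither TTACCC nor CACGTG in the NDR, and in CYR1 (chrX:424864-424996, plus strand), capitals mark runs of at least 6 A or T. CYR1 was picked after its value was seen, for the longest such run among 1-gene rows without TTACCC whose coding sequence covers at least 80% of the transcript.
VPS13: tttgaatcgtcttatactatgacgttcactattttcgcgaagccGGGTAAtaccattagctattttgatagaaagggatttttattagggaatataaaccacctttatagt
IRA1: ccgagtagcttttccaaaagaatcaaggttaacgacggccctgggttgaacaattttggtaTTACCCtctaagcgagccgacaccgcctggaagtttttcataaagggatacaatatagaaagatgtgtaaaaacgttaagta
TOR2: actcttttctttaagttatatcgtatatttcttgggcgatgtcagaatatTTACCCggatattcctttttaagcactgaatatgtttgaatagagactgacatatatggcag
MDN1: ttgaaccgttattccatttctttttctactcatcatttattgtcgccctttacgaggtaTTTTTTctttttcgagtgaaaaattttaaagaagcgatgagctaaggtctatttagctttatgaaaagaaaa
CYR1: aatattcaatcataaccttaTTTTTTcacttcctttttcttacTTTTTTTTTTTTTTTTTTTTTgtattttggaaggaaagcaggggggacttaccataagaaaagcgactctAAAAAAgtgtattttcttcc

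In these promoters the centre of TTACCC lay 137.5 bp upstream of the +1 dyad in VPS13, 152.5 bp in IRA1 and 132.5 bp in TOR2. In VPS13 the motif was read on the non-coding strand, in IRA1 and TOR2 on the coding strand. All 3 genes have a tandem neighbour upstream, UBI4, BMT2 and MNN4 in this order, and the printed stretches of VPS13 and TOR2 overlap no annotated gene. In IRA1 the first 72 of the 143 printed bases, with the TTACCC match, lie inside the annotated BMT2 gene. The longest run in CYR1 was 21 T, against 6 T in MDN1.

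The 227 transcripts ranged from 4001 to 15049 bp with a median of 4801 bp, and 47 of them were of 6000 bp or more. Together they hold 14.2% of the summed length of all ORF transcripts. Both ends were mapped in 214 of them, only the 5′ end in 7 and only the 3′ end in 6. Among these 6 are GDB1, FRE2, GSC2 and SLA1, named below. Their distances from the TSS, and their leaders, therefore rest on a 5′ end that was not mapped. The label of a long ORF held for most but not all. By the R64 annotation 173 of the 227 held 4000 bp or more of coding sequence, summed over the genes of a row. These include the rows of NFT1 and of YNR065C and YNR066C, where 2 annotated genes sum to 4578 and 4662 bp. The other 54 reached the limit only with DNA outside annotated coding sequence. A total of 10 rows hold 2 gene names (GAL7 with GAL10 and PEX6 with MDJ2, for example), and in 14 rows the coding sequence covers under 80% of the transcript. The farthest such case was AQY3, whose coding sequence covers 27.7% of a 7009 bp transcript. No -1 dyad was listed for 4 long transcripts (URA2, RIM15, SSM4 and the row of DNF2) and no +1 dyad for 1 (MAN2). An NDR length, the distance from the -1 to the +1 dyad, was therefore given for 222.

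NDR length hardly varied with transcript length. Long ORFs had a median NDR of 268.5 bp (interval 261 to 276 bp, quartiles 233.5 and 298.8 bp, n = 222) and 1 to 2 kb ORFs a median of 265 bp (263 to 267 bp, quartiles 223.8 and 298 bp, n = 2064). The difference of 3.50 bp had an interval of -4.26 to 11.3 bp, which included 0. With the limit set to 3500 bp the difference was 5 bp and its interval, 1.39 to 11.3 bp, did not include 0. Across the classes of 4 to 5 kb, 5 to 6 kb and 6 kb or more the medians were 267.5, 268 and 271 bp. The stretch of DNA outside both nucleosome cores had a median of 121.5 bp in long ORFs and 118 bp in 1 to 2 kb ORFs.

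The spread around this median was wide. The shortest NDRs were 120 bp, found in 8 of the 222 long ORFs (3.60%, interval 1.84 to 6.95%) and in 2.68% of all ORF transcripts. This is also the distance of 120 bp within which the peak search allowed no second dyad. These 8 were FAS2, the alpha subunit of fatty acid synthase, MOT1, the remodeler that removes TBP from DNA, SSN2 of the Mediator kinase module, SEC31 of the COPII coat, the phospholipase D SPO14, the mating adhesin FIG2, MON2, a protein of the Golgi and endosomes, and ROM2. At this distance the 2 cores leave no DNA between them, which was so in 17 long ORFs. At the other end, NDRs over 400 bp were found in 11 of 222 (4.95%) against 7.29% of all ORF transcripts. The 3 longest were those of OSH2, an oxysterol-binding protein, with 524 bp, ECM30 with 472 bp and the nucleoporin gene NUP157 with 469 bp. None of the long ORFs had an NDR of 0 bp, the lowest value listed among the 1 to 2 kb ORFs. A value of 0 bp places -1 and +1 at the same base. It is no spacing of 2 called dyads, as the search allowed none within 120 bp of another.

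**Figure D1:**
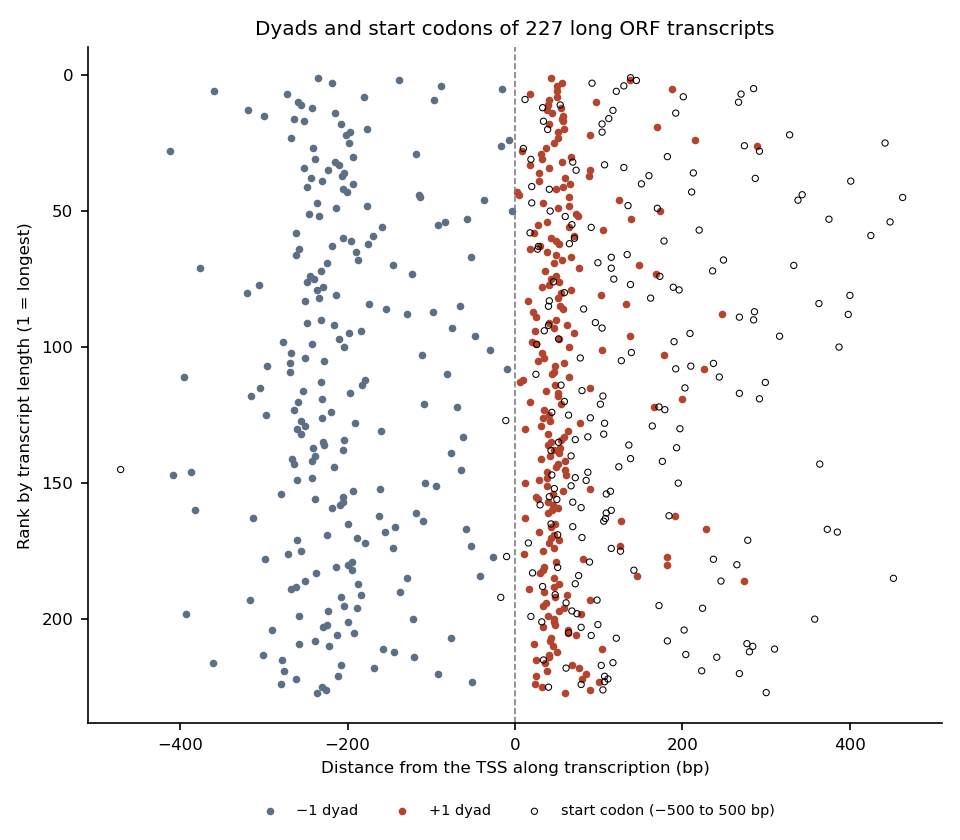
Position of the -1 dyad (blue), the +1 dyad (red) and the start codon (open circles, drawn for the 209 members within 500 bp of the TSS) relative to the TSS in bp, with the 227 long ORF transcripts ranked by length from top to bottom. The +1 dyads form a narrow band at a median of 49 bp, while -1 dyads and start codons scatter widely, with medians of -215 and 121 bp.

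The +1 dyad lay slightly closer to the TSS in long ORFs. Its median distance was 49 bp (interval 46 to 51 bp, quartiles 37.2 and 65 bp, n = 226), against 55 bp (54 to 56 bp, quartiles 41 and 74 bp, n = 2087) in 1 to 2 kb ORFs. The difference was -6 bp with an interval of -9.16 to -3.76 bp, which lies on 1 side of 0. The quartiles of both sets overlap broadly, so the shift is small against the scatter of single genes. Listed transcript lengths mostly differ by steps larger than this shift (4001, 4009 and 4017 bp, for example). Single TSS positions may therefore be coarser than the shift. Single +1 positions also depend on the column used. A second column of +1 dyads differed by more than 10 bp in 113 of the 225 long ORFs with both. Median distances fell from 57 bp below 1 kb to 52 bp at 2 to 3 kb, 49.5 bp at 3 to 4 kb and 46 bp at 4 to 5 kb, and were 51.5 bp at 5 to 6 kb and 51 bp at 6 kb or more. With the limit set to 5000 bp the difference was -4 bp and its interval, -6.24 to 1.10 bp, included 0.

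The -1 dyad sat at a median of -215 bp from the TSS (interval -228 to -206 bp) in long ORFs and at -210 bp (-213 to -206 bp) in 1 to 2 kb ORFs. The difference of -5 bp had an interval of -18.6 to 4.49 bp. The -1 dyad varied more between long genes than the +1 dyad did, from -412 bp in GLT1 to -4 bp in MYO1.

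Single genes departed far from the typical +1 position. The 3 smallest distances were 2 bp in UBR2, a ubiquitin ligase, 5 bp in MOT1 and 6 bp in CHD1, itself a chromatin remodeler. The 3 largest were 289 bp in BEM2, 273 bp in OSH2 and 247 bp in GDB1, the glycogen debranching enzyme. The 5′ end of GDB1 was not mapped. In all, 16 members had the +1 dyad more than 150 bp downstream of the TSS, a count that was not compared with other ORFs. By the way positions were called, the +1 is the first dyad at or downstream of the TSS, and a nucleosome centred just upstream of the TSS is then listed as -1. A -1 dyad within 50 bp of the TSS was listed for 10 of 223 long ORFs (4.48%) and for 5.79% of all ORF transcripts, and in these 10 the +1 dyad was 104 to 289 bp downstream. Of the 10, 3 are ABC transporter genes, PDR5 with its -1 dyad at -9 bp, AUS1 at -26 bp and SNQ2 at -48 bp. The others were IRA2 at -16 bp, BEM2 at -17 bp, MYO1 at -4 bp, AQY3 at -7 bp, ADR1 at -30 bp, GSC2 at -37 bp and the GAL7 and GAL10 row at -42 bp.

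The largest difference from shorter ORFs concerned the start codon. The +1 dyad lay at or past the annotated start codon in 42 of 226 long ORFs (18.6%, interval 14.1 to 24.2%), where all ORF transcripts gave 44.0%. In 1 to 2 kb ORFs it was 979 of 2086 (46.9%, 44.8 to 49.1%), a difference of -28.3 percentage points (-33.4 to -22.4). In most long genes, 184 of 226, the centre of the +1 nucleosome was therefore over the 5′ leader, the transcribed DNA ahead of the start codon. The share fell over the length classes, from 59.2% below 1 kb to 35.7% at 2 to 3 kb and 27.5% at 3 to 4 kb. It was 18.3% at 4 to 5 kb, 14.6% at 5 to 6 kb and 23.4% at 6 kb or more, and the intervals of these last 3 classes overlap.

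Long ORFs had longer leaders. The start codon was a median of 121 bp from the TSS (interval 107 to 145 bp, quartiles 68 and 266 bp, n = 227), against 65 bp (62 to 68 bp, quartiles 41 and 124 bp, n = 2089) in 1 to 2 kb ORFs. A leader of 200 bp or more was found in 33.5% of long ORFs and 11.5% of 1 to 2 kb ORFs. Leader length is part of the transcript length that chose the members. Both sets were therefore also chosen on coding length alone, summed over the genes of a row. The 179 ORFs with 4000 bp or more of coding sequence then had a median leader of 112 bp, against 67 bp in the 1856 ORFs with 1000 to 2000 bp of coding sequence. The +1 dyad was at or past the start codon in 41 of 179 (22.9%, 17.4 to 29.6%) and 826 of 1850 (44.6%, 42.4 to 46.9%).

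At matched leader length the counts still differed in the middle classes. Among transcripts with a leader of 50 to 100 bp the +1 dyad was at or past the start codon in 6 of 48 long ORFs (12.5%, 5.86 to 24.7%) and in 246 of 660 ORFs of 1 to 2 kb (37.3%, 33.7 to 41.0%). In this class the +1 dyad was at a median of 47 bp in long ORFs and 58 bp in 1 to 2 kb ORFs. With leaders of 100 to 200 bp the shares were 4.69% (1.61 to 12.9%, n = 64) and 18.3% (15.0 to 22.3%, n = 436). With leaders under 50 bp they were 79.4% (63.2 to 89.7%, n = 34) and 84.2% (81.3 to 86.8%, n = 685), and with leaders of 200 to 400 bp 3.92% and 5.20%, with overlapping intervals in both cases.

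Leaders over 1000 bp were found in 6 of 227, AQY3 with 5098 bp, the flocculin gene FLO10 with 3397 bp, the ferric reductase gene FRE2 with 2449 bp, DAN4 with 1846 bp, THI72 with 1654 bp and ACC1, the acetyl-CoA carboxylase gene, with 1080 bp. In the first 5 the coding sequence covers between 27.7 and 64.3% of the transcript, and in ACC1 85.6%. The leader was longer than the distance from the start codon to the nearest annotated gene upstream in AQY3 (635 bp) and DAN4 (1839 bp), and shorter than it in the other 4. In 4 of 227 long ORFs (1.76%, interval 0.687 to 4.44%) the listed TSS was inside the annotated coding sequence, against 3.07% of all ORF transcripts. The leader was -471 bp in the row of NFT1 and -10 to -17 bp in AUS1, IKI3 and the row of YNR065C and YNR066C.

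**Figure D2:**
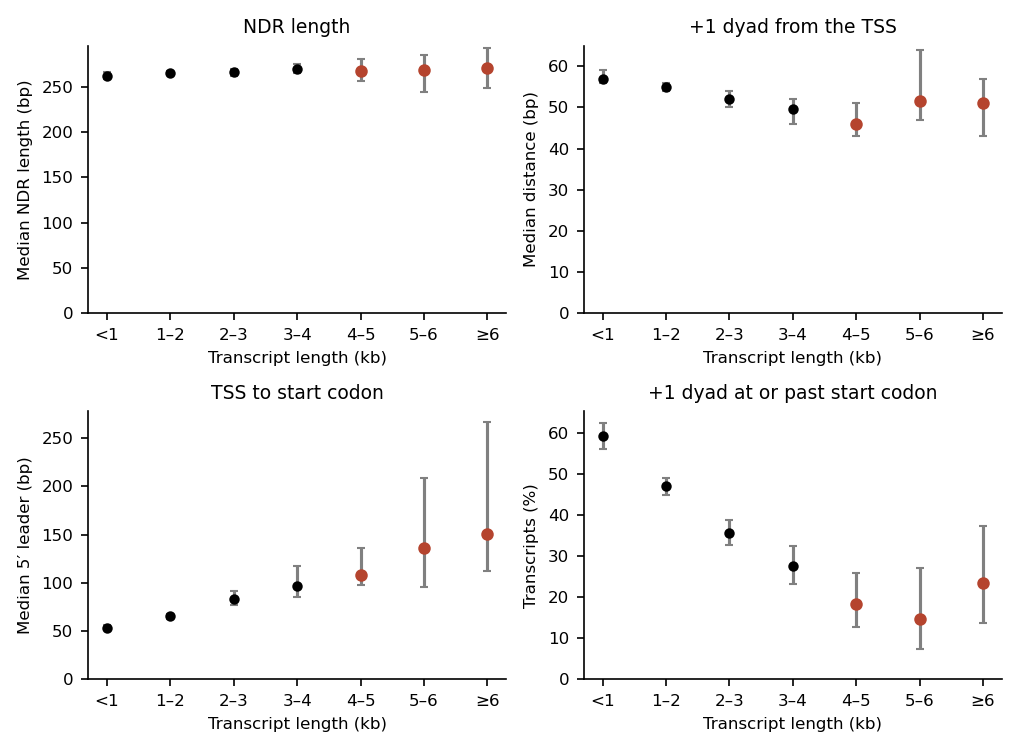
Median NDR length, median +1 distance from the TSS, median 5′ leader (all in bp) and the percent of transcripts with the +1 dyad at or past the start codon, by transcript length in kb, for all ORF transcripts. Bars are 95% intervals over transcripts and the 3 classes of 4 kb or more are in red. NDR length stays between 262 and 271 bp, while leaders lengthen from 53 to 151 bp and the share over the coding sequence falls from 59.2% below 1 kb to between 14.6 and 23.4% in the 3 classes of 4 kb or more.

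Promoter orientation was close to that of other ORFs. The nearest annotated gene upstream was on the other strand (a divergent promoter) in 117 of 227 (51.5%, interval 45.1 to 58.0%), against 52.1% of all ORF transcripts and 51.9% of 1 to 2 kb ORFs. The difference from 1 to 2 kb ORFs was -0.397 percentage points (-7.21 to 6.37). The other 110 long ORFs had a tandem neighbour upstream. A gene that overlaps the start of the row's own gene was counted as upstream too. This was so for INO80 (distance -2 bp), RSF2 (-139 bp), the row of DRS2 (-393 bp) and the GAL7 and GAL10 row (-1548 bp). All of these were counted as divergent. At the 3′ end, 130 of 227 (57.3%) faced a convergent neighbour, against 56.7% of all ORF transcripts. The distance from the start codon to the upstream gene was larger, with a median of 501 bp (459 to 552 bp) against 414 bp (396 to 430 bp), and this distance includes the longer leader.

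Within long ORFs the NDR was about as long at divergent promoters (median 267.5 bp, interval 253 to 276 bp, n = 116) as at tandem promoters (270.5 bp, 261 to 285 bp, n = 106). The +1 dyad was at 51 bp (47 to 56 bp) and 46 bp (41 to 50 bp). For 85 divergent long ORFs the partner was an ORF of the table and a -1 dyad was listed, and in 43 of them (50.6%, 40.2 to 61.0%) the -1 dyad was at the very base listed as the partner's +1 dyad, so that both genes shared 1 NDR. The share over all ORF transcripts was 56.8%. The 2 TSSs were a median of 179 bp apart in the pairs that shared an NDR and 459 bp apart in the 42 that did not. In 2 pairs both genes were long, SNF2, the ATPase of the SWI/SNF remodeler, with the vacuolar P-type ATPase gene YPK9 (TSSs 491 bp apart), and IML1, a TORC1 regulator, with MET5, a sulfite reductase gene listed as ECM17 (1059 bp apart). Neither pair shared an NDR.

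The Reb1 core motif was more frequent at long ORFs. TTACCC, on either strand and wholly between the -1 and +1 dyads, was found in 56 of 222 NDRs (25.2%, interval 20.0 to 31.3%), where all ORF transcripts gave 18.1%. In 1 to 2 kb ORFs it was 324 of 2063 (15.7%, 14.2 to 17.3%), a difference of 9.52 percentage points (4.01 to 15.8). By length class the share was 19.6% below 1 kb, 15.7% at 1 to 2 kb, 18.9% at 2 to 3 kb, 21.9% at 3 to 4 kb, 23.1% at 4 to 5 kb, 32.6% at 5 to 6 kb and 23.9% at 6 kb or more. With both sets chosen on coding length the shares were 25.6% (19.7 to 32.5%) and 16.4% (14.7 to 18.1%). A match is a description of the DNA and not of bound Reb1.

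The motif had a typical place. Its centre was a median of 152 bp upstream of the +1 dyad (interval 144.5 to 161.5 bp, quartiles 136.2 and 164 bp), and in 49 of the 56 long ORFs it was 100 to 200 bp upstream, on the coding strand in 29 and on the other in 27. In 1 to 2 kb ORFs the median was 150.5 bp (quartiles 133.5 and 169.8 bp), and over all ORF transcripts 152.5 bp. TTACCC was found at 35 of 116 divergent long promoters (30.2%, 22.6 to 39.1%) and 21 of 106 tandem ones (19.8%, 13.3 to 28.4%), intervals that overlap. An NDR with 2 copies was found in 5 long ORFs, namely ACC1, the clathrin heavy chain gene CHC1, the corepressor gene SIN3, the remodeler gene SWR1 and GRR1, an F-box protein gene.

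CACGTG, the core motif of Cbf1, was present in 11 of 222 NDRs (4.95%, interval 2.79 to 8.65%), against 3.73% of all ORF transcripts and 3.34% of 1 to 2 kb ORFs. The 11 were TRA1, CDC39, INO80, DOP1, IML1, MET5, SMC4, PSK1, STH1, KSP1 and the row of DRS2, and MET5, PSK1 and KSP1 held TTACCC too. Among them INO80 and STH1 encode remodeler ATPases, and MET5 is a gene of sulfur assimilation, the pathway for which Cbf1 is best known. TATAAA or TATATA, spellings of the TATA element, were in 122 of 222 NDRs (55.0%), against 54.9% of all ORF transcripts.

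**Figure D3:**
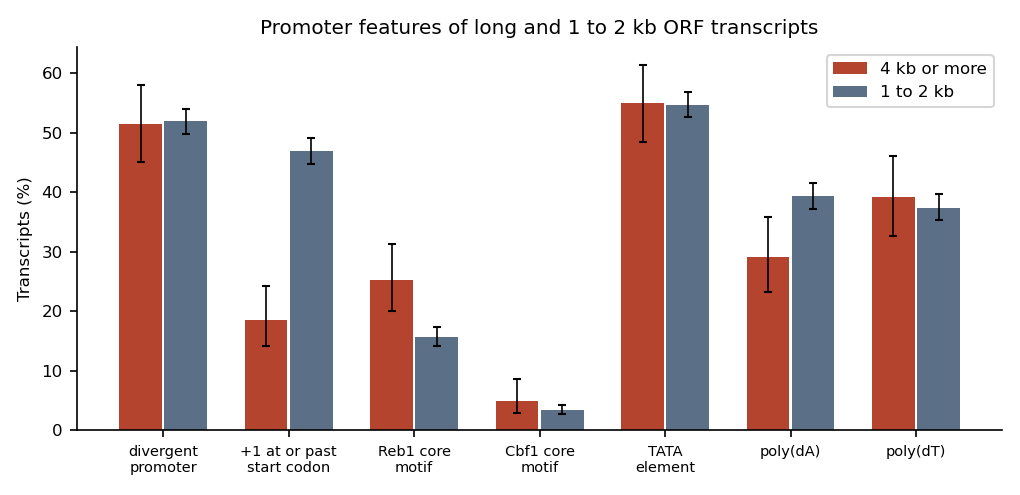
Percent of long ORF transcripts (red, 4 kb or more) and of ORF transcripts of 1 to 2 kb (blue) with each promoter feature, with 95% Wilson intervals. The +1 dyad is at or past the start codon in 18.6 against 46.9%, the Reb1 core motif TTACCC is in 25.2 against 15.7% of NDRs and poly(dA) in 29.1 against 39.3% of linkers.

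Homopolymer tracts were counted in the DNA between the nucleosome cores, in the 199 long ORFs where it spans at least 20 bp. A run of at least 6 A or 6 T was found in 111 of 199 (55.8%, interval 48.8 to 62.5%), against 61.3% of all ORF transcripts and 61.4% (59.2 to 63.6%) of 1 to 2 kb ORFs. The difference of -5.62 percentage points had an interval of -12.9 to 1.47. Runs of A on the coding strand were found in 29.1% of long ORFs (23.3 to 35.8%) and 39.3% of 1 to 2 kb ORFs (37.1 to 41.5%), a difference of -10.2 points (-16.4 to -3.14), with 37.7% over all ORF transcripts (36.2 to 39.2%). Runs of T were found in 39.2% (32.7 to 46.1%) and 37.4% (35.3 to 39.6%), a difference of 1.77 points (-5.11 to 9.03), with 38.4% over all ORF transcripts. The split by strand was made after the values were seen. In 29 long ORFs the longest run was of 10 or more bases. The median longest run was 6 bases in long ORFs, in 1 to 2 kb ORFs and over all ORF transcripts.

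Base composition between the cores was close to that of shorter genes. The median A+T content was 65.8% (interval 65.1 to 66.7%) in long ORFs and 66.7% (66.3 to 67.0%) in 1 to 2 kb ORFs, a difference of -0.833 points (-1.64 to 0.0595). At divergent long promoters it was 64.9% (63.9 to 65.7%, n = 104) and at tandem ones 67.2% (66.1 to 68.1%, n = 95). Among 1 to 2 kb ORFs these medians were 66.1 and 67.2%. Over the transcript as a whole A+T content was higher in long ORFs, 62.5% against 61.4%, a difference of 1.12 points (0.799 to 1.37).

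The rigidity score, the length of the longest run of A followed by T that holds a base, is the measure the study used for stiff DNA. Averaged over 21 bp at 100 bp upstream of the +1 dyad it had a median of 1.95 in both sets. At 55 bp upstream the medians were 1.40 and 1.48, a difference of -0.0714 (-0.157 to 0.0568). The mean profiles of both sets rose on the upstream side of the +1 nucleosome, with the highest A+T bin at -105 bp in long ORFs (68.4%) and at -95 bp in 1 to 2 kb ORFs (68.4%).

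**Figure D4:**
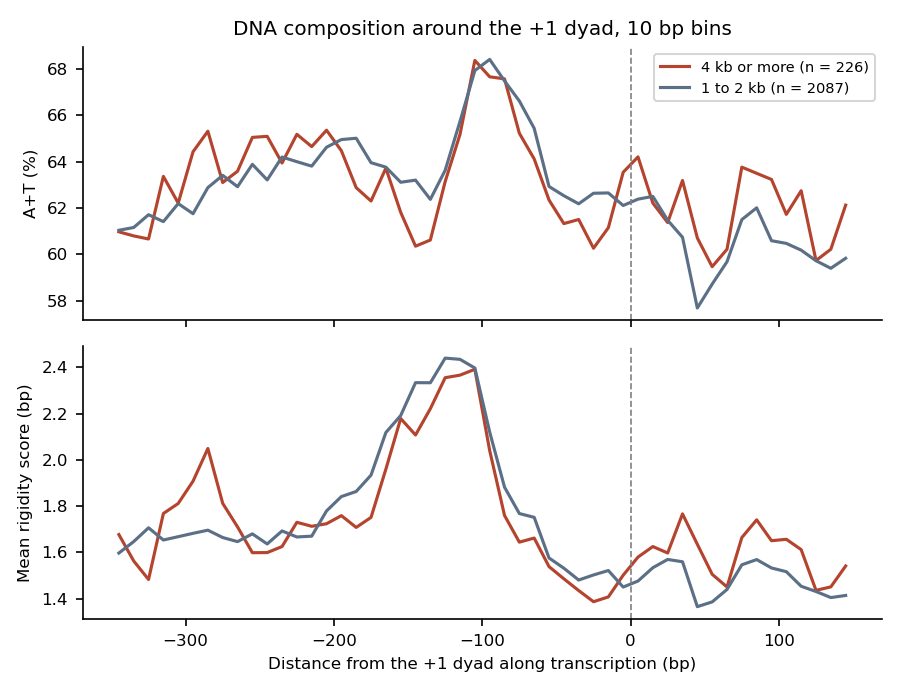
Mean A+T content in percent (top) and mean rigidity score in bp (bottom) in 10 bp bins against distance from the +1 dyad in bp, for 226 long ORF transcripts (red) and 2087 ORF transcripts of 1 to 2 kb (blue). A+T peaks at -105 bp in long and -95 bp in 1 to 2 kb ORFs, rigidity at -105 and -125 bp, and past the dyad A+T averages 61.9% in long and 60.5% in 1 to 2 kb ORFs. The vertical axes do not start at 0.

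The gene families behind these transcripts were read from 24 lists of related large proteins. They held 121 of the 227 long ORFs, and 20 lists had at least 3 long members. With so few genes a list, the values below describe single promoters and no list is called different from the others. Counts in a list stand beside 51.5% divergent promoters and 25.2% of NDRs with TTACCC over long ORFs. Over all ORF transcripts these shares were 52.1% and 18.1%.

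The giants of signalling come first. All 5 listed kinases related to phosphatidylinositol kinases were long, from MEC1 with 7337 bp to TRA1, the kinase-dead activator-binding subunit of SAGA and NuA4, with 11393 bp. Their NDRs were 235 bp in MEC1, 259 bp in TOR2, 275 bp in TRA1, 309 bp in TOR1 and 356 bp in TEL1. In TOR1 and MEC1, with leaders of 34 and 39 bp, the +1 dyad was 23 and 19 bp past the start codon, and in TRA1, TOR2 and TEL1 it was ahead of it. All 4 genes found in the table for Ras and cAMP signalling were long: the Ras GTPase-activating genes IRA1 and IRA2, the exchange factor gene CDC25 and the adenylate cyclase gene CYR1. Their NDRs spanned 203 to 295 bp and their leaders 160 to 285 bp. Of 8 other large protein kinases listed 5 were long (BCK1, SSK2, SSK22, RIM15 and KSP1), with +1 dyads at 49 to 125 bp. The phosphoinositide kinase genes STT4 and FAB1, a further list with 2 long members, had leaders of 60 and 10 bp and +1 dyads past the start codon.

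Chromatin and transcription genes formed the next group. Of the 17 Snf2-type ATPases listed, 16 were in the table and 8 of them long. In 7 of these 8 the nearest upstream gene was on the other strand, except in ULS1, listed as RIS1. For INO80 this gene, YGL149W, overlaps the start of INO80 (distance -2 bp), so the 2 genes are not separated by a promoter region. INO80, the gene of the remodeler under study, had its +1 dyad 168 bp from the TSS within a leader of 685 bp, an NDR of 291 bp and a CACGTG match. SWR1, which exchanges H2A.Z into the +1 nucleosome, had an NDR of 394 bp with 2 TTACCC matches, SNF2 310 bp, STH1 353 bp and CHD1 238 bp, while MOT1 and IRC20 had 120 and 125 bp. Of the 12 coactivator and elongation factor genes 5 were long, and TTACCC was in 3 of their NDRs (TAF2, SPT7 and SPT6). The 4 long RNA polymerase subunits RPA190, RPO21, RPB2 and RPO31 had NDRs of 283, 319, 312 and 248 bp, and the first 3 held TTACCC. Their +1 dyads were at 43 to 73 bp, all ahead of the start codon, with leaders from 118 bp in RPA190 to 603 bp in RPO21. The +1 dyad was at or past the start codon in 18.6% of long ORFs and 44.0% of all ORF transcripts.

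Genes for genome maintenance came next. The DNA polymerase and topoisomerase genes POL1, POL2, REV3 and TOP2 had +1 dyads at 32 to 47 bp and leaders of 19 to 87 bp. Their NDRs were 425, 271, 253 and 281 bp in this order. SMC4 of condensin, the cohesin loader gene SCC2 and the separase gene ESP1 had NDRs of 272, 267 and 244 bp and leaders of 52, 136 and 249 bp.

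Nuclear pore genes contributed 9 long transcripts of 16 listed. Their +1 dyads fell within 35 to 62 bp, and NDRs ranged from 245 bp in NUP192 to 469 bp in NUP157. TTACCC was in 4 of the 9 (NUP188, NUP157, MLP1 and MLP2). Ribosome assembly and RNA processing genes followed the general pattern. Of 8 assembly genes 5 were long, with NDRs of 195 to 320 bp and no TTACCC. The spliceosome genes PRP8 and BRR2 and the helicase genes SEN1, SLH1 and SKI2 had NDRs of 249 to 291 bp.

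Membrane transport and metabolism were represented by 3 lists. The 10 long ABC transporter genes, of 19 found in the table, had a median NDR of 221.5 bp. NDRs ranged from 124 bp in the row of NFT1 to 328 bp in YOR1, and +1 dyads from 24 bp in VMR1 to 226 bp in PDR5. These values include PDR5, AUS1 and SNQ2, where the -1 dyad was listed within 50 bp of the TSS. The listed TSS of the NFT1 row lies inside annotated coding sequence. Among the multidrug transporters, SNQ2 had an NDR of 185 bp and the row of PDR15 one of 164 bp, while PDR12, an exporter of weak acids, had one of 240 bp. Of the 12 P-type ATPase genes found, 5 were long, the flippase genes DRS2, DNF1, DNF2 and DNF3 and the ion pump gene YPK9, with NDRs of 244 to 430 bp in the 4 that had one. Of the 12 multidomain enzymes 9 were long. FAS1 and FAS2, the 2 subunits of fatty acid synthase, had NDRs of 149 and 120 bp, while ACC1 had 357 bp and GLT1, the glutamate synthase gene, 420 bp. In none of these 9 was the +1 dyad past the start codon, where long ORFs gave 18.6% and all ORF transcripts 44.0%. The median leader of the 9 was 292 bp.

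Cytoskeleton and membrane traffic genes made up the rest. DYN1, the dynein heavy chain gene and the second longest transcript, had its +1 dyad at 137 bp and an NDR of 275 bp. NUM1, the cortical anchor of dynein, had values of 40 and 295 bp. The myosin genes MYO2, MYO3 and MYO4 had NDRs of 304, 286 and 460 bp and the formin genes BNI1 and BNR1 304 and 308 bp. MYO1 stood apart with 177 bp. The 5 bridge-like lipid transfer proteins, which carry lipids between membranes, were all in long rows, with +1 dyads within 32 to 50 bp. VPS13 had an NDR of 409 bp, FMP27 357 bp, ATG2 299 bp, CSF1 230 bp and the row of YPR117W (HOB2) 138 bp. That row also holds RRG8 and starts ahead of it, so its values are not from a promoter next to YPR117W. Endocytic genes (PAN1, EDE1 and SLA1) had NDRs of 235, 302 and 151 bp. Vesicle coat and tether genes had NDRs from 120 bp in SEC31 to 452 bp in CHC1 and included SEC16 with 261 bp, COP1 with 267 bp, TRS120 with 303 bp and USO1 with 227 bp. Regulators of small GTPases ranged from 120 bp in ROM2 through 233 bp in SEC7 and 237 bp in TUS1 to 306 bp in BEM2. The ubiquitin ligase genes TOM1, UFD4, UBR1 and UBR2 had NDRs of 138, 294, 259 and 203 bp. The proteasome regulator genes ECM29 and BLM10 had NDRs of 285 and 293 bp and both held TTACCC, and the translation control genes GCN1 and GCN2 had NDRs of 297 and 268 bp.

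**Figure D5:**
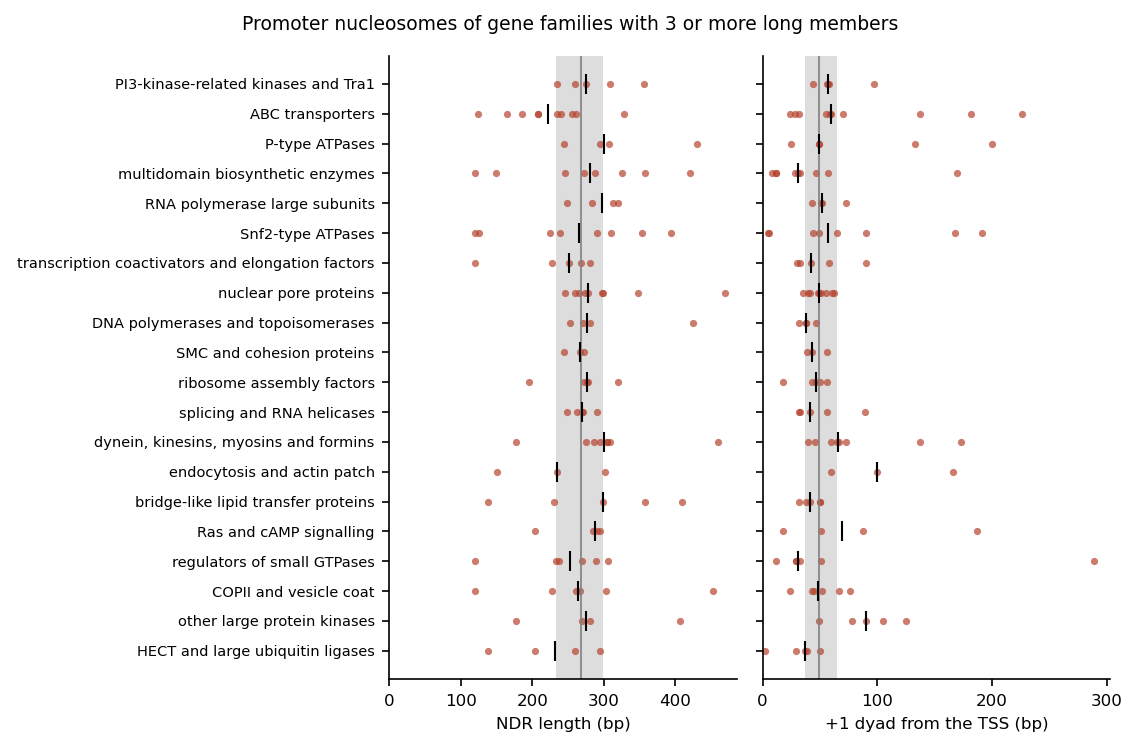
NDR length (left) and +1 distance from the TSS (right), both in bp, of every long gene in the 20 families with 3 or more long members. Each dot is 1 gene, ticks are family medians, and the grey band and line are the quartiles and median of all long ORFs (233.5, 268.5 and 298.8 bp for NDR length). Nuclear pore genes keep +1 dyads between 35 and 62 bp. ABC transporter genes spread from 24 to 226 bp, and among them PDR5, AUS1 and SNQ2 have a -1 dyad within 50 bp of the TSS.

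Duplicated long genes were compared pair by pair. In 10 of 14 listed paralog pairs both genes were long, and in the 9 with both NDR lengths the 2 copies differed by a median of 87 bp. The closest pair was GEA1 and GEA2, Arf exchange factors, with 269 and 289 bp. The farthest were FMP27 and the row of YPR117W, with 357 and 138 bp, and NUP157 and NUP170, with 469 and 259 bp. The row of YPR117W starts ahead of RRG8, so its 138 bp are not from a promoter next to YPR117W. The +1 dyads differed by a median of 17.5 bp, by 2 bp in MYO2 and MYO4 but by 169 bp in IRA1 and IRA2 and 171 bp in PDR5 and PDR15. In IRA2 and PDR5 a dyad just upstream of the TSS, at -16 and -9 bp, was listed as -1. Their +1 is then the next dyad downstream. TTACCC was in both NDRs for MLP1 and MLP2 only, and in 1 of the 2 for 6 pairs. Orientation was the same in 7 pairs. In 2 of these the divergent partners are themselves paralogs: RPL40B and RPL40A, upstream of MLP1 and MLP2, and FRT1 and FRT2, upstream of MYO2 and MYO4. The NDRs were 265 and 347 bp in the first case and 304 and 460 bp in the second.

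The 8 longest transcripts covered most of the range seen in the full set. MDN1, the AAA ATPase that strips assembly factors from pre-ribosomes (15049 bp), had an NDR of 278 bp and its +1 dyad at 43 bp. DYN1 (12649 bp) and TRA1 (11393 bp) both had 275 bp, with +1 dyads at 137 and 56 bp. TOM1, a HECT ubiquitin ligase (10041 bp), had a short NDR of 138 bp. IRA2 (9729 bp) had 203 bp with the +1 dyad at 187 bp, and its paralog IRA1 (9665 bp) 290 bp with the +1 dyad at 18 bp. VPS13 (9673 bp) had 409 bp and CSF1 (9209 bp) 230 bp, both with the +1 dyad at 50 bp. In none of the 8 was the +1 dyad past the start codon, where long ORFs gave 18.6% and all ORF transcripts 44.0%. At the length limit, SKI2 and TRS120 (both 4001 bp) just entered with NDRs of 262 and 303 bp, and RSE1 (3993 bp) and RAD50 (3985 bp) just missed with 293 and 186 bp.

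The last nucleosome dyad lay a median of -108 bp from the TTS in long ORFs (interval -126 to -89 bp) and -108 bp in 1 to 2 kb ORFs (-112 to -104 bp).

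Long transcripts are also long targets for the restriction enzymes whose cut sites are listed beside the table, BamHI, EcoRV and KpnI. The 227 transcripts held 830 sites, or 0.689 per kb (Poisson interval 0.643 to 0.737), against 0.693 per kb (0.664 to 0.724) in 1 to 2 kb ORFs. KpnI sites stood at 0.130 per kb (0.111 to 0.152) against 0.175 (0.161 to 0.191) in 1 to 2 kb ORFs and 0.159 (0.151 to 0.168) over all ORF transcripts, an interval that overlaps that of long ORFs. EcoRV sites stood at 0.396 per kb (0.361 to 0.433) against 0.365 (0.343 to 0.387) in 1 to 2 kb ORFs, and BamHI sites at 0.163 (0.141 to 0.187) against 0.154 (0.140 to 0.168). At least 1 site was present in 214 long transcripts. MDN1 and RIM15 held 14 each and HFA1, the mitochondrial acetyl-CoA carboxylase gene, and the row of YPR117W 11 each. None of the 8 longest lacked a site, while NUM1 was among the 13 long transcripts with none.

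The long ORFs were spread over all 16 chromosomes, from 5 on chromosome I to 30 on chromosome IV. Of these, 12 of 227 (5.29%, interval 3.05 to 9.01%), lay within 30 kb of a chromosome end, against 4.31% of 1 to 2 kb ORFs and 3.53% of all ORF transcripts (3.03 to 4.10%). This group held AQY3, FRE2, FLO10, DAN4, MAN2 and ZNF1, whose coding sequence covers between 27.7 and 64.3% of the transcript. It also held the rows of NFT1, of YNR065C and YNR066C, and of PEX6 and MDJ2, each with 2 gene names.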

How the data were processed

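Mononucleosomal DNA of 1 in vivo library (BY4741, log phase, YPD) was sequenced by the authors and mapped to SacCer3 (R64-1-1) with Bowtie. They shifted reads by 73 bp to the dyad, smoothed dyad density with a Gaussian (SD 25 bp), took peaks in order of height with 120 bp on either side excluded, and kept the top 90%. The +1 was the nearest dyad 0 to 500 bp downstream of a published TSS and the -1 the next upstream. The deposited table holds these positions and NDR lengths in bp, with no counts or depth, and the deposited cut-site lists hold positions. Of 2 +1 columns, the one that enters the NDR length was used, and 6 other coordinate columns were not used. All BamHI, EcoRV and KpnI sites listed lay at their motif in the RefSeq R64 genome, and all 4536 ORF rows matched its annotation, from which start codons, neighbours and sequences were read.

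Medians were given exact order-statistic intervals, shares Wilson intervals, differences intervals combined from both, and restriction sites Poisson intervals. These cover the scatter over transcripts or counting error only. No test across genes was run, as there is 1 library. Counts of members given without a share over other ORFs describe the long ORFs only. The code was tested on simulated data. The features used here were an upstream neighbour (nearest annotated gene of any kind), A+T and runs of A or T over linkers of at least 20 bp, and motifs between the dyads. Named genes were the 8 longest, those with the 3 shortest (with ties) or longest NDRs and +1 distances, family members and paralogs, the 2 on either side of the length limit, those with the most restriction sites and any of the 8 longest with none. CYR1, the genes with -1 close to the TSS, with extreme leaders, with CACGTG or with 2 TTACCC and the divergent pairs of 2 long genes were named after their values were seen. The members, gene lists and comparisons were chosen with earlier results of these data known. Alternatives were other length limits, coding length, chromosome ends, the second +1 column, other reference sets and motif spellings. Python 3.11.15, pandas 2.3.3, NumPy 2.4.6 and SciPy 1.17.1 were used.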

Additional observations from a re-analysis of the deposited data

How the results depend on the processing

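The 11 results were recomputed under other settings, which gave 69 values inside the interval of the value reported and 4 outside it, and none with the opposite sign. With the second +1 column of the table the median +1 distance of long ORFs was 45 bp in place of 49 bp, and the difference from 1 to 2 kb ORFs was -5 bp. The 2 columns were equal in 7 of the 225 long ORFs with both and over 10 bp apart in 113. The +1 distances of single genes therefore hold for the column used. With TTACCCG in place of TTACCC the share of long NDRs fell to 15.8%, against 8.48% in 1 to 2 kb ORFs, since the longer motif is a subset. With runs of at least 5 bases in place of 6, 76.4% of long linkers held one, against 81.1% of 1 to 2 kb ORFs. With a length limit of 5000 bp the median A+T content of the linker was 64.9%, and the interval of the +1 difference included 0. With a limit of 3500 bp the interval of the NDR length difference did not include 0. The restriction to 1-gene rows with at least 80% coding sequence, run for all 11 results, and the removal of NDRs of 120 bp, run for the median NDR length and its difference, were chosen after seeing the data and left these values inside their intervals. No paired analysis was possible because the positions come from 1 library. Limits are that 1 library gives no replicate error, that depth per gene is unknown, that no dyad pair closer than 120 bp could be called, and that start codons and neighbours follow the annotation.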
